A study of Mus musculus with 2 samples.

Results

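Cytochrome P450 genes were followed in medullary epithelial cells of the thymus (mTECs) sorted for high MHC class II, in 1 RNA sequencing library labelled Aire-KO and 1 labelled WT. Members were the rows of the deposited gene table whose symbol is Cyp followed by digits, 1 letter and digits, as in Cyp2e1, and 93 of 23997 gene rows met that rule. Both groups were thymus cells sorted from pooled C57BL/6 mice, with genotype Aire-/- in the first and wild type in the second, and neither received a stated treatment. The labels state neither the size of the pool, nor age or sex of the animals, nor the Aire allele. With 1 library per genotype there was no test between genotypes, and no difference below has a replicate check.

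P450 enzymes are haem proteins that insert an oxygen atom into their substrates, using electrons from the reductase Por in the endoplasmic reticulum or from ferredoxin in mitochondria. Families 1 to 3 mostly oxidize drugs and other foreign compounds in liver, gut, lung and nasal mucosa, family 4 oxidizes fatty acids and eicosanoids, and smaller families make steroid hormones, bile acids and active vitamin D or clear retinoic acid. Mature mTECs transcribe many genes of peripheral tissues at low levels, in large part through the regulator Aire, which exposes developing T cells to those proteins. Several P450 enzymes are targets of autoantibodies in people with inherited AIRE deficiency.

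Levels are in FPKM, a unit that divides a gene's fragments by transcript length and library size, so that genes can be compared per length. Ratios are log2 of the Aire-KO value over the WT value. For medians, plots of ratios and the choice of lower and higher genes 0.1 FPKM was first added to each value, so the change of weakly expressed genes is understated. A gene counts as lower or higher if it differed by 2-fold or more on that scale and had a mean over both libraries of at least 0.5 FPKM, the minimum; this sorts genes by size only. A log2 ratio printed with an interval is without the added 0.1. Those are 95% counting intervals from estimated fragments and cover counting error only. Below, under the Aire-KO label and under the WT label mean in the library so labelled.

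Estimated fragments in isoforms of 500 bp or longer came to 55820000 under the Aire-KO label and 42900000 under the WT label. The value of 1 fragment was fitted on its own and corresponded to library sizes of 55000000 under the Aire-KO label and 48600000 under the WT label. On that scale 3 fragments on a transcript of 2000 bp amount to 0.0305 FPKM under the Aire-KO label and 0.0355 FPKM under the WT label. Aire itself stood at 640.2 FPKM under the Aire-KO label and 221 FPKM under the WT label. Its transcript was therefore not lower under the knockout label. A value for the whole gene cannot isolate a deleted part and does not check the label, so directions below follow the library labels. All 14 mTEC markers found, among them Epcam, Foxn1 and H2-Aa, were above the minimum and neither lower nor higher. In bulk RNA, fewer cells of a type and less RNA per cell cannot be told apart.

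Most P450 genes were weakly expressed. The value was smaller under the Aire-KO label for 84 of the 93 and larger for 5. Over the 23992 genes with an estimate it was smaller for 10961 and larger for 9516. A value above 0 was present for 65 of the 93 genes under the Aire-KO label and for 89 under the WT label, and a level of 10 FPKM or more for 5 and 14 genes. Their summed level was 322 FPKM under the Aire-KO label and 1084 FPKM under the WT label, which is 0.0584% and 0.207% of each library's total. Of 51 genes at the minimum, 37 were lower (72.5%), 1 was higher and 13 were neither. Over all 15906 genes at the minimum, 20.5% were lower and 7.09% higher. The median log2 ratio was -2.04 over the 51 genes and 0.05 over all genes. At 4-fold, 26 of the 51 (51.0%) were lower, against 11.9% of all genes.

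The minimum itself favours genes that differ. Of the 51, 23 were under 0.5 FPKM under the Aire-KO label and passed through their level under the WT label, and 22 of these were lower (95.7%), close to the 93.8% of all genes that passed in this way. None of the 51 passed in the opposite way. Of the 28 at 0.5 FPKM or more in both libraries, 15 were lower (53.6%), against 12.3% of all genes that met that condition. Among genes averaging at least 2 FPKM, 13 of 24 were lower (54.2%), against 14.3% of all genes. That mean, too, can be reached through the WT level alone, so it lessens this bias without removing it. The other 42 members fell under the minimum. Their highest levels were 0.585 FPKM under the Aire-KO label, for Cyp2r1, and 0.888 FPKM under the WT label, for Cyp19a1. Of these 42, 37 had the smaller value under the Aire-KO label, 1 had the larger (Cyp2r1), and 4 were listed at 0 in both libraries (Cyp2a22, Cyp2c40, Cyp2d11 and Cyp4a32).

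**Figure D1:**
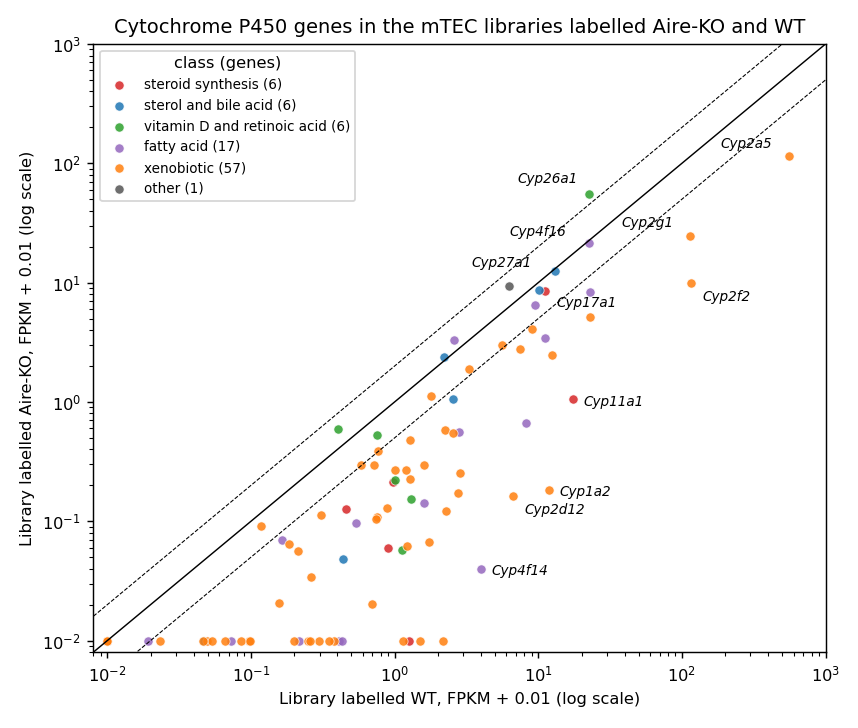
FPKM of the 93 P450 genes, with the library labelled Aire-KO on the vertical axis and the library labelled WT on the horizontal axis, both log scaled after adding 0.01. Points are genes coloured by class, the solid line marks equal values and the dashed lines 2-fold differences, and Cyp26a1 at 55.7 and 22.7 FPKM lies above the upper line while most genes lie below the lower one.

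The classes differed in their counts. Among xenobiotic genes (families 1, 2 without Cyp2r1, and 3) 24 of 28 at the minimum were lower, with a median log2 ratio of -2.17. Among fatty acid genes (family 4) the count was 6 of 9 (-1.68), and among steroid synthesis genes 3 of 4 (-2.79). Vitamin D and retinoic acid genes had 3 of 5 lower and 1 higher (-1.81). Sterol and bile acid genes had 1 of 4 lower, with a median of -0.14. Cyp20a1, an orphan P450 with no class, stood at 9.33 FPKM under the Aire-KO label and 6.22 FPKM under the WT label and was neither. Of all genes at the minimum, 20.5% were lower. Cyp24a1, Cyp26b1, Cyp27b1, Cyp11b1, Cyp11b2 and many xenobiotic genes passed the minimum only through their WT level. Among all genes that did so 93.8% were lower, so class counts depend on the minimum. At a mean of at least 2 FPKM, 9 of 11 xenobiotic, 3 of 6 fatty acid and 1 of 2 steroid synthesis genes were lower. So were 0 of 3 sterol and bile acid genes and 0 of 1 vitamin D and retinoic acid gene, against 14.3% of all genes. This stricter mean can also be reached through the WT level. The lower genes Cyp1a2, Cyp2d12, Cyp4f18 and Cyp11a1 reached it in that way, each under 2 FPKM under the Aire-KO label. Differences between classes were not tested, since each class holds few genes of 1 library pair.

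**Figure D2:**
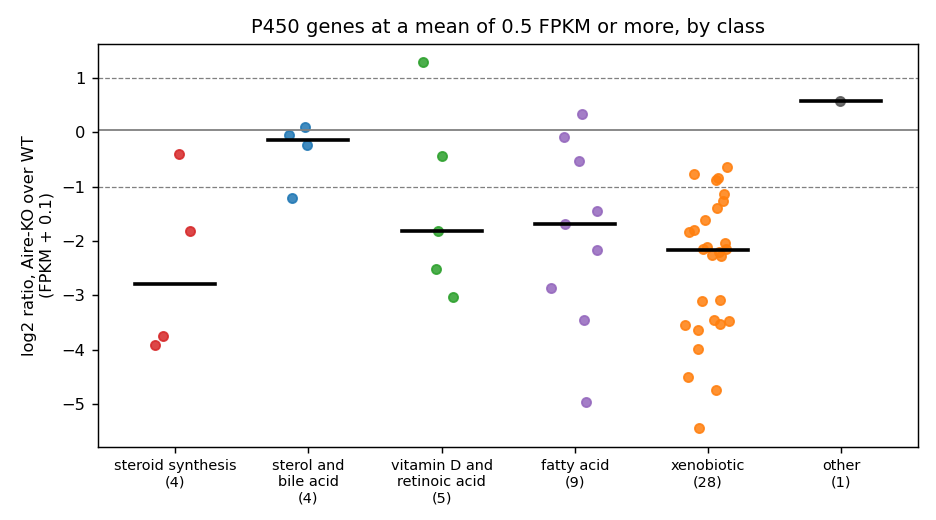
Log2 ratio of FPKM + 0.1, the library labelled Aire-KO over the library labelled WT, for the 51 P450 genes at a mean of 0.5 FPKM or more, by class with the number of genes. Black bars are class medians, dashed lines 2-fold differences and the grey line the median of all genes at 0.05. Sterol and bile acid genes centre at -0.14 and xenobiotic genes at -2.17.

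Steroid hormone synthesis starts with Cyp11a1, the mitochondrial enzyme that cleaves the cholesterol side chain, on chromosome 9 (58015017 to 58027023, mm10). Cyp11a1 had 1.05 FPKM under the Aire-KO label and 17.3 FPKM under the WT label, with a log2 ratio of -4.04 (interval -4.34 to -3.76). Cyp17a1, the 17-alpha-hydroxylase needed for androgens, is the exception in its class. It had 8.51 FPKM under the Aire-KO label and 11.2 FPKM under the WT label, a log2 ratio of -0.40 (-0.54 to -0.26), and was neither lower nor higher. The adrenal enzymes of family 11 were both lower. Cyp11b1, the 11-beta-hydroxylase of corticosterone synthesis, was listed at 0 under the Aire-KO label and had 1.25 FPKM under the WT label. Cyp11b2, aldosterone synthase, had 0.203 FPKM under the Aire-KO label and 0.969 FPKM under the WT label.

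The remaining steroid genes were below the minimum. Cyp19a1, the aromatase that makes oestrogens, had 0.0502 FPKM under the Aire-KO label and 0.888 FPKM under the WT label, an estimated 6 and 91 fragments. Cyp21a1, the 21-hydroxylase, had 0.116 FPKM under the Aire-KO label and 0.450 FPKM under the WT label, an estimated 12 and 39 fragments. Cyp11b1 shares 9% of its exon bases with Gml2 on the opposite strand, and Cyp21a1 shares 4.77% with the pseudogene Tnxa. Library preparation kept strand per the labels, but whether the authors' counting used it is not stated, so reads there cannot be told apart.

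Several other genes of steroid synthesis had lower values under the Aire-KO label. Of 13 listed partners 10 reached the minimum, of which 7 were lower (70.0%), none was higher and 3 were neither. The median log2 ratio of these 10 was -1.19. Over all genes at the minimum the lower share was 20.5%. Hsd17b3, Hsd3b6, Hsd3b1 and Nr5a1 were under 0.5 FPKM under the Aire-KO label and passed through their WT level. Among all genes that did so 93.8% were lower. Hsd17b3, the testicular enzyme that makes testosterone, had 0.0331 FPKM under the Aire-KO label and 4.11 FPKM under the WT label. Hsd3b6 had 0.192 and 3.50 FPKM in the same order, and the cholesterol transfer gene Star had 1.95 and 4.93 FPKM. The broadly expressed Tspo stood at 466 FPKM under the Aire-KO label and 305 FPKM under the WT label. Of 6 markers of steroid-producing cells, of which Star, Nr5a1 and Hsd3b1 are also among those partners, Mc2r and Insl3 were listed at 0 in both libraries and Lhcgr and Hsd3b1 only under the Aire-KO label. Their summed level was 2.07 FPKM under the Aire-KO label and 8 FPKM under the WT label, and their part in the steroid P450 values was not tested.

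Sterol and bile acid P450 genes were close to equal between libraries where they were well expressed. Cyp27a1, the mitochondrial sterol 27-hydroxylase, had 12.6 FPKM under the Aire-KO label and 13.0 FPKM under the WT label, a log2 ratio of -0.05 (-0.17 to 0.07). Cyp7b1, the oxysterol 7-alpha-hydroxylase, had 8.60 FPKM under the Aire-KO label and 10.1 FPKM under the WT label (-0.23, interval -0.36 to -0.10). Cyp39a1, which hydroxylates 24-hydroxycholesterol, had 2.37 FPKM under the Aire-KO label and 2.21 FPKM under the WT label (0.10, interval -0.13 to 0.32). For Cyp27a1 and Cyp39a1 the interval spans 0, so no difference was detectable at this depth.

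The more tissue-restricted sterol enzymes had smaller values. Cyp8b1, the hepatic sterol 12-alpha-hydroxylase of cholic acid synthesis, was lower at 1.04 FPKM under the Aire-KO label and 2.53 FPKM under the WT label. Cyp46a1, the brain cholesterol 24-hydroxylase, had 0.0379 FPKM under the Aire-KO label and 0.426 FPKM under the WT label. Cyp7a1, the rate-limiting enzyme of bile acid synthesis, was listed at 0 under the Aire-KO label and had 0.0370 FPKM under the WT label, an estimated 7 fragments.

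Cholesterol synthesis genes resembled the well-expressed sterol group. Cyp51, a P450 of cholesterol synthesis whose symbol lies outside the member rule, had 22.1 FPKM under the Aire-KO label and 29.2 FPKM under the WT label. Of 19 genes of the pathway, all at the minimum, 1 was lower and 18 were neither, with a median log2 ratio of -0.08. The lower one was Dhcr7, the last reductase of the pathway, at 3.32 FPKM under the Aire-KO label and 14.9 FPKM under the WT label.

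Retinoic acid and vitamin D genes went in both directions. Cyp26a1, which clears retinoic acid, was the only P450 member higher by the 2-fold rule. It lies on chromosome 19 (37697808 to 37701536, mm10) and had 55.7 FPKM under the Aire-KO label and 22.7 FPKM under the WT label, a log2 ratio of 1.29 (1.21 to 1.37). This made it the second most abundant P450 transcript of the library labelled Aire-KO, after Cyp2a5. Its neighbour Cyp26c1 had 0.519 FPKM under the Aire-KO label and 0.740 FPKM under the WT label (-0.51, interval -1.11 to 0.11), so no difference was detectable at this depth. Cyp26b1, the third retinoic acid hydroxylase, was lower at 0.143 FPKM under the Aire-KO label and 1.28 FPKM under the WT label.

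The promoter of Cyp26a1 is shown because the gene stands apart in direction and is a textbook target of retinoic acid receptors. The sequence is the 250 bases before the transcript start, from RefSeq on GRCm38.p6 (the mm10 build), chr19:37697558-37697807, plus strand. Capitals mark a pair of retinoic acid receptor half-sites, which read on the opposite strand, at positions -32 to -16 from the start.
Cyp26a1: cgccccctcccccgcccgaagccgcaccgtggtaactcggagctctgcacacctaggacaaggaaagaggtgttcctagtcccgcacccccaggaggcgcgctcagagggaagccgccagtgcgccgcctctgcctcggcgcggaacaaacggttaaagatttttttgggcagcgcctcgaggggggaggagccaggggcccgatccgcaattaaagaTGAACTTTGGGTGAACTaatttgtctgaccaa

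The pair was searched on both strands as half-sites that begin with A or G, then G, then G or T, and end in TCA, repeated in the same direction with 5 bases between them. Among promoters with a RefSeq sequence, from 250 bases before to 50 after the start, 1 of 72 P450 genes and 8 of 16687 genes of the table (0.0479%) held such a pair. A match is a description of the sequence. The receptor gene Rara had 15.6 FPKM under the Aire-KO label and 13.3 FPKM under the WT label and was neither lower nor higher.

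Vitamin D enzymes were weakly expressed. Cyp24a1, which inactivates vitamin D, had 0.0472 FPKM under the Aire-KO label and 1.11 FPKM under the WT label (log2 ratio -4.55, interval -5.65 to -3.54). Cyp27b1, which makes the active hormone, had 0.213 FPKM under the Aire-KO label and 1 FPKM under the WT label (-2.23, interval -2.95 to -1.61). Both were lower. Cyp2r1, the hepatic 25-hydroxylase, was below the minimum with 0.585 FPKM under the Aire-KO label and 0.395 FPKM under the WT label (0.56, interval -0.19 to 1.38), and no difference was detectable at this depth. The receptor gene Vdr stood at 29.8 FPKM under the Aire-KO label and 40.4 FPKM under the WT label.

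**Figure D3:**
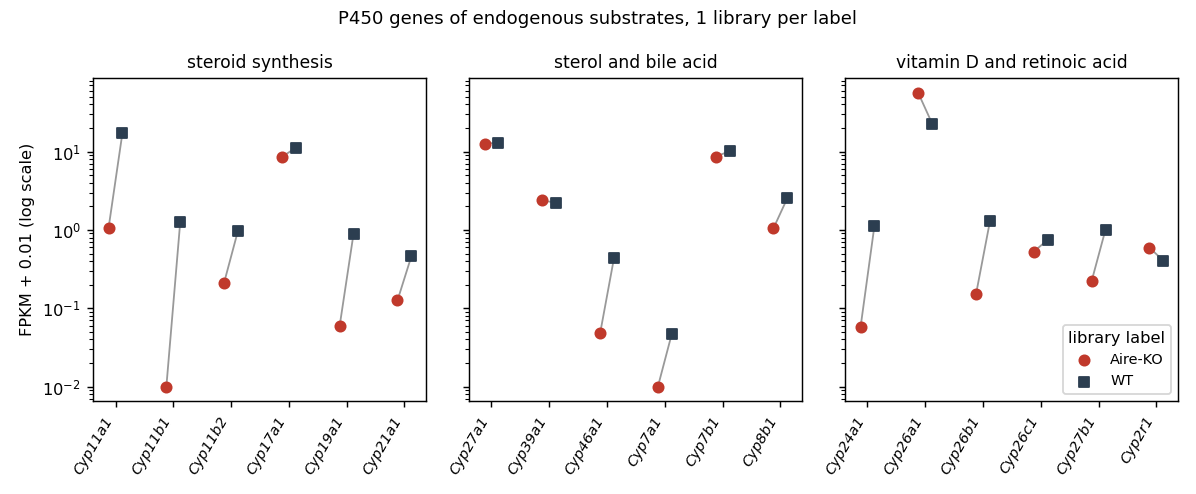
FPKM + 0.01 on a log scale for the 18 P450 genes of steroid synthesis, sterol and bile acid, and vitamin D and retinoic acid metabolism. Red circles are the library labelled Aire-KO and dark squares the library labelled WT, joined per gene, with genes listed at 0 drawn at the bottom. Cyp27a1, Cyp39a1, Cyp7b1 and Cyp17a1 lie close together, Cyp11a1 far apart, and Cyp26a1 is higher under the Aire-KO label.

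Xenobiotic genes carried most of the P450 transcript, 176 FPKM of the sum under the Aire-KO label and 903 FPKM under the WT label. The largest was Cyp2a5, the mouse coumarin 7-hydroxylase, on chromosome 7 (26835339 to 26843264, mm10). Cyp2a5 had 116 FPKM under the Aire-KO label and 558 FPKM under the WT label, a log2 ratio of -2.26 (-2.29 to -2.23). It made up 36.2% of the summed P450 level under the Aire-KO label and 51.5% under the WT label. Its coding sequence is 98.5% identical to that of Cyp2a4, which had 0.119 FPKM under the Aire-KO label and 0.870 FPKM under the WT label, so the split of reads between them is uncertain.

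Enzymes of airway and nasal mucosa were also abundant. Cyp2f2, the naphthalene-oxidizing enzyme of lung club cells, had 9.94 FPKM under the Aire-KO label and 116 FPKM under the WT label (-3.55, interval -3.65 to -3.45). The nasal enzyme Cyp2g1 had 24.4 FPKM under the Aire-KO label and 113 FPKM under the WT label (-2.21, interval -2.28 to -2.14). An antisense gene, Gm15883, overlaps 13.5% of the exon bases of Cyp2f2, and without stated use of strand reads there cannot be told apart.

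Next in abundance were enzymes of gut and skin. Cyp3a13, of the subfamily that oxidizes many drugs in liver and gut, had 5.13 FPKM under the Aire-KO label and 22.9 FPKM under the WT label. Cyp2b19, the arachidonic acid epoxygenase of keratinocytes, had 2.48 FPKM under the Aire-KO label and 12.5 FPKM under the WT label. Cyp2j6 had 4.10 FPKM under the Aire-KO label and 9.09 FPKM under the WT label. All 3 were lower, Cyp2j6 with the smallest difference of any lower member (log2 ratio -1.13 with 0.1 added).

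The lowest xenobiotic ratios, on the scale with 0.1 added, included enzymes best known from liver. Cyp1a2, which oxidizes caffeine and aromatic amines, had 0.171 FPKM under the Aire-KO label and 11.8 FPKM under the WT label (-6.10, interval -6.94 to -5.42), an estimated 16 and 960 fragments. Cyp2d12 had 0.152 FPKM under the Aire-KO label and 6.68 FPKM under the WT label, an estimated 12 and 453 fragments. Cyp2c29 had 0.0571 FPKM under the Aire-KO label and 1.73 FPKM under the WT label, an estimated 5 and 128 fragments. With so few fragments under the Aire-KO label, the order of these ratios is not resolved.

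Several were listed at 0 under the Aire-KO label. Among members at the minimum these were Cyp2d10 (2.17 FPKM under the WT label), the ethanol-oxidizing Cyp2e1 (1.48 FPKM), Cyp1a1, the classical target of the aryl hydrocarbon receptor (1.14 FPKM), and the steroid gene Cyp11b1 given above. No fold is given against a listed 0. Cyp2d10 is a close copy of Cyp2d11, with coding sequences 94.7% identical, and its value depends on how shared reads were split.

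The 4 xenobiotic genes at the minimum that were neither lower nor higher all had the smaller value under the Aire-KO label. Cyp1b1, an aryl hydrocarbon receptor target expressed outside the liver, had 1.11 FPKM under the Aire-KO label and 1.78 FPKM under the WT label. Cyp2j9 (2.98 and 5.56 FPKM in the same order) and Cyp2j13 (1.89 and 3.26 FPKM) are members of the 2J subfamily of epoxygenases. Cyp2c37 stood at 0.379 FPKM under the Aire-KO label and 0.761 FPKM under the WT label. On the scale with 0.1 added, Cyp2j9 at a log2 ratio of -0.88, Cyp2c37 at -0.84 and Cyp2j13 at -0.76 lay just outside the 2-fold line, whereas Cyp2j6 at -1.13, Cyp8b1 at -1.21 and Cyp2u1 at -1.26 lay just inside it.

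The other xenobiotic genes at the minimum were lower, with log2 ratios (0.1 added) between -3.48 for Cyp2d26 and -1.26 for Cyp2u1. They included Cyp3a11, at 0.245 FPKM under the Aire-KO label and 2.83 FPKM under the WT label, and the epithelial P450 Cyp2s1, at 2.75 and 7.45 FPKM in the same order. The 29 xenobiotic genes below the minimum reached 0.288 FPKM under the Aire-KO label (Cyp2c68) and 0.870 FPKM under the WT label (Cyp2a4), and 12 of these belong to subfamily 2C.

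Promoters of Cyp2a5 and Cyp1a2, the most abundant xenobiotic gene and 1 of those with the lowest ratios, are shown because both place a TATAAA motif at the same distance from the start. Each is the 250 bases before the start, from RefSeq on GRCm38.p6, and capitals mark TATAAA at positions -29 to -24. Cyp2a5 is at chr7:26835089-26835338 on the plus strand and Cyp1a2 at chr9:57683656-57683905 on the minus strand.
Cyp2a5: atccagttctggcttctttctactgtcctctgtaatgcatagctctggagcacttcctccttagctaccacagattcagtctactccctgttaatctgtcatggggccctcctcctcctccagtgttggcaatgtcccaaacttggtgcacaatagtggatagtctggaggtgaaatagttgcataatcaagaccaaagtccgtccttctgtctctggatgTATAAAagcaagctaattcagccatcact
Cyp1a2: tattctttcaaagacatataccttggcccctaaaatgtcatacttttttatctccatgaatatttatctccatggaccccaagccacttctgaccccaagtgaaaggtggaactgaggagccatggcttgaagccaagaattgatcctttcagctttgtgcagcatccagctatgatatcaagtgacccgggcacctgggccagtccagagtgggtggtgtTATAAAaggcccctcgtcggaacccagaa

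On the sense strand between positions -50 and -16, TATAAA was present in 11 of 72 P450 promoters (15.3%) and in 3.09% of the 16687 promoters of all genes. On either strand of the whole window it was present in 31 of the 72 (43.1%) and in 12.9% of all. Of the P450 promoters, 30 belonged to lower genes and 5 of these held the motif near the start (16.7%), against 8.69% of the 2335 promoters of all lower genes. Of the promoters of P450 members below the minimum, 6 of 32 held it (18.8%). None of the 9 promoters of P450 genes that were neither held it, where 1.2% of all genes that were neither did. The median ratio of observed to expected CpG was 0.137 in promoters of lower P450 genes and 0.278 in those that were neither, against 0.292 for all lower genes and 0.774 for all genes that were neither. At 0.894 the Cyp26a1 promoter was richer in CpG than those medians.

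Fatty acid P450 genes of the 4F subfamily differed among close relatives. Cyp4f14, a hepatic leukotriene B4 hydroxylase, had 0.0297 FPKM under the Aire-KO label and 3.96 FPKM under the WT label, an estimated 3 and 362 fragments (-7.06, interval -9.33 to -5.49). Cyp4f18, the leukotriene B4 hydroxylase of mouse neutrophils, had 0.650 FPKM under the Aire-KO label and 8.15 FPKM under the WT label (-3.65, interval -4.09 to -3.25). Cyp4f39, which serves the lipid barrier of skin, had 3.45 FPKM under the Aire-KO label and 11.2 FPKM under the WT label. Cyp4f15 (0.545 and 2.81 FPKM in the same order) and Cyp4f40 (0.131 and 1.58 FPKM) were lower too.

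The remaining 4F relatives at the minimum did not pass the 2-fold rule. Cyp4f16 had 21.4 FPKM under the Aire-KO label and 22.6 FPKM under the WT label (-0.08, interval -0.16 to 0.00). Its protein is 93.5% identical to that of Cyp4f37, so reads may be split between them. Cyp4f13 had 6.52 FPKM under the Aire-KO label and 9.47 FPKM under the WT label. Cyp4f17 had 3.28 FPKM under the Aire-KO label and 2.58 FPKM under the WT label (0.35, interval 0.07 to 0.63). Zfp961 on the opposite strand overlaps 9.76% of the exon bases of Cyp4f18. Outside 4F, the ocular and widely expressed fatty acid hydroxylase Cyp4v3 was lower at 8.35 FPKM under the Aire-KO label and 23.0 FPKM under the WT label. The 8 family 4 members below the minimum included 5 of subfamily 4A, fatty acid hydroxylases of liver and kidney. These 5 were listed at 0 under the Aire-KO label and reached 0.420 FPKM under the WT label (Cyp4a14). Other 4A genes lie outside the symbol rule, among them Cyp4a12b at 0.0249 FPKM under the Aire-KO label and 0.917 FPKM under the WT label.

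Position along the chromosomes was compared with direction, taking members less than 500 kb apart as 1 cluster. On chromosome 7, from 25802476 to 27158564 (mm10), 13 members of subfamilies 2A, 2B, 2F, 2G, 2S and 2T lie together, and all 6 at the minimum were lower. On chromosome 15 all 5 of the 2D cluster at the minimum were lower, and on chromosome 5 all 4 of the 3A cluster. Cyp1a2, Cyp1a1 and Cyp11a1 lie within 1 cluster on chromosome 9, and all 3 were lower. Other clusters were mixed, with 2 of 3 lower in the 2C cluster on chromosome 19 and 1 of 3 in the 2J cluster on chromosome 4. In the 4F cluster on chromosome 17 the count was 4 of 7, and Cyp4f17 and Cyp4f16 lie next to the lower Cyp4f39. Over all genes at the minimum 20.5% were lower. Many cluster members, however, were under 0.5 FPKM under the Aire-KO label and passed through their WT level. These were Cyp2b10, Cyp2d9, Cyp2d10, Cyp2d12, Cyp2d26, Cyp3a11, Cyp3a16, Cyp3a57, Cyp1a1, Cyp1a2, and in mixed clusters Cyp2c29, Cyp2c37, Cyp2c65, Cyp4f14 and Cyp4f40. As 93.8% of all genes that passed in this way were lower, their counts say little about the clusters. Neighbouring copies can share reads, so cluster members are not independent measurements.

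**Figure D4:**
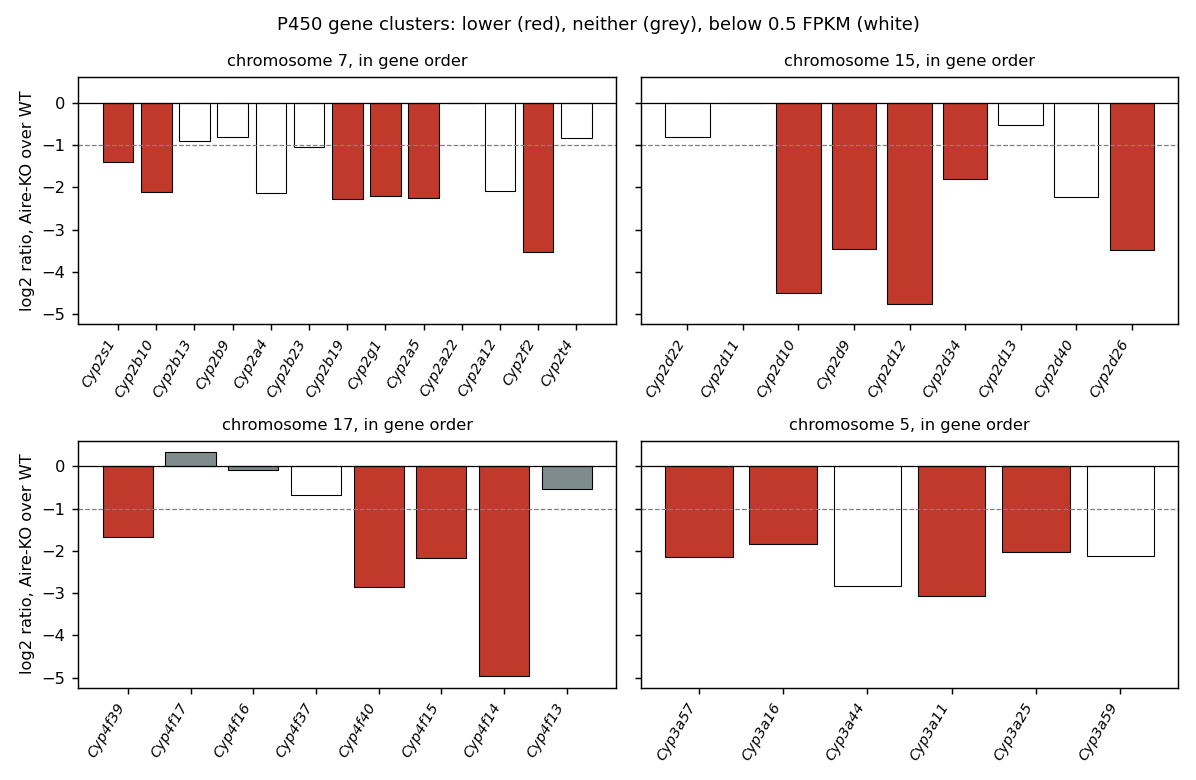
Log2 ratio of FPKM + 0.1, the library labelled Aire-KO over the library labelled WT, for P450 genes of 4 clusters in chromosomal order. Red bars are lower genes, grey bars genes that were neither, white bars genes under the minimum, and a missing bar a gene listed at 0 in both libraries. Bars at the minimum are all red on chromosomes 7, 15 and 5, while chromosome 17 mixes red bars down to -4.97 with grey bars up to 0.34.

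The autoantibody targets of AIRE deficiency were taken by their mouse counterparts, Cyp11a1, Cyp17a1, Cyp21a1, Cyp1a2 and Cyp2a5. Of these 5, 4 reached the minimum, 3 were lower and Cyp17a1 was neither, beside 20.5% lower over all genes at the minimum. Cyp1a2 was under 0.5 FPKM under the Aire-KO label and passed through its WT level. Among all genes that did so 93.8% were lower. Cyp2a5 and Cyp17a1 kept 116 and 8.51 FPKM under the Aire-KO label, against 558 and 11.2 FPKM under the WT label. Cyp1a2, Cyp11a1 and Cyp21a1 were at 0.171, 1.05 and 0.116 FPKM under the Aire-KO label, against 11.8, 17.3 and 0.450 FPKM under the WT label.

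Genes of electron supply and haem synthesis did not pass the 2-fold rule. Of 9 redox partners found none was lower or higher, with a median log2 ratio of 0.02. The reductase gene Por had 32.7 FPKM under the Aire-KO label and 47.4 FPKM under the WT label, and the ferredoxin gene Fdx1 had 31.9 and 31.4 FPKM in the same order. All 8 haem synthesis genes were neither (median 0.13), with Alas1, the rate-limiting enzyme, at 173 FPKM under the Aire-KO label and 205 FPKM under the WT label.

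Regulators known to control P450 genes were split. Of 15 listed 12 reached the minimum, of which 5 were lower (41.7%), none was higher and 7 were neither, with a median log2 ratio of -0.77. Of all genes at the minimum 20.5% were lower. At a mean of at least 2 FPKM, 1 of 7 regulators was lower (14.3%), the same share as of all genes. The other lower ones, Ahr, Hnf4a, Nr0b2 and Nr1i3, averaged 1 to 2 FPKM, where 37.4% of all genes were lower. Lower genes included Hnf4a, the hepatocyte nuclear factor, at 0.159 FPKM under the Aire-KO label and 2.38 FPKM under the WT label, and Ahr, the aryl hydrocarbon receptor, at 0.572 and 1.99 FPKM in the same order. Nr0b2, the repressor of bile acid synthesis, was listed at 0 under the Aire-KO label and had 2.06 FPKM under the WT label.

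**Figure D5:**
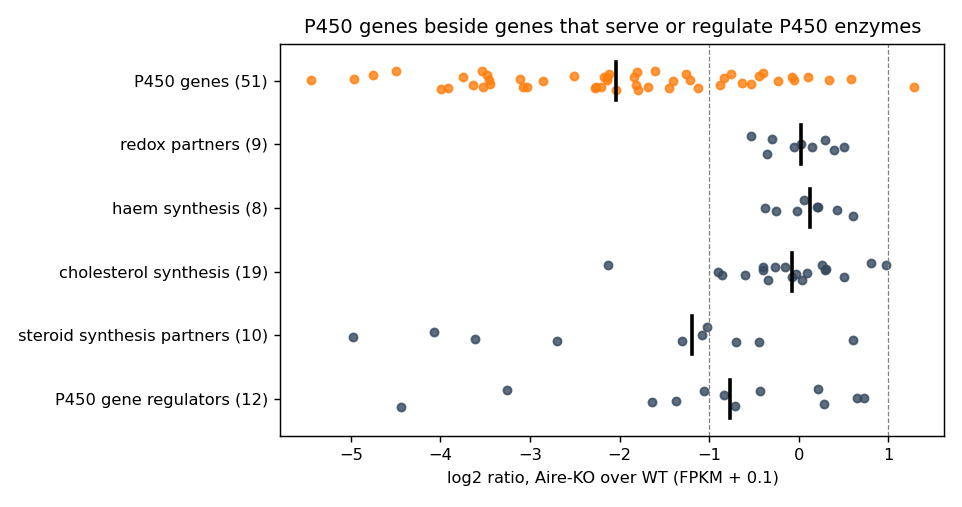
Log2 ratio of FPKM + 0.1, the library labelled Aire-KO over the library labelled WT, for P450 genes and for genes that serve or regulate them, with the number of genes at the minimum. Points are genes, black bars medians and dashed lines 2-fold differences. Redox partners and haem synthesis genes stay between the dashed lines around 0.02 and 0.13, whereas P450 genes centre at -2.04.

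Counts for markers of other cells are to be read against the 20.5% of all genes that were lower. Alb, Apob, Fgb, Hnf4a, Tat, Itgax and Cdh5, however, were under 0.5 FPKM under the Aire-KO label and passed the minimum through their WT level. Among all genes that did so 93.8% were lower, so the counts they enter say little about their cell types. Of 10 hepatocyte markers, which include the regulator Hnf4a, 9 reached the minimum and 8 of these were lower, with a summed level of 69.1 FPKM under the Aire-KO label and 404 FPKM under the WT label, and the fibrinogen gene Fgb was listed at 0 under the Aire-KO label. Of 9 dendritic cell and macrophage markers found, 6 of 8 at the minimum were lower (478 FPKM under the Aire-KO label and 732 FPKM under the WT label in sum). Lyz2, which was neither, had 436 and 676 FPKM of these sums in the same order. Of 10 thymocyte markers, 2 of 8 at the minimum were lower (20.7 and 33.5 FPKM in the same order). Of 8 fibroblast and endothelial markers, 2 of 6 were lower and 1 higher (104 and 64.1 FPKM in the same order). The fibroblast gene Dcn, the higher one, had 85.9 and 34.5 FPKM of these sums. Of the 8, 6 had the smaller value under the Aire-KO label and 2 the larger, and the lower ones were the endothelial Cdh5 and Pecam1. Their part in the P450 values was not tested.

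The authors' deposited table called none of the 89 P450 genes it tested, and 70 of the 20473 genes it tested in all (0.342%). Among the P450 genes the lowest q of the authors' deposited table was 0.125, shared by 7 genes, namely Cyp11b1, Cyp2d10, Cyp2e1, Cyp2f2, Cyp3a59, Cyp4a10 and Cyp4a14. Those values compare 2 libraries and not 2 genotypes.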

How the data were processed

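Polyadenylated RNA of 2 samples was read as deposited in a gene table of 23997 rows and an isoform table of 33295 rows. The authors deposited FPKM values, made with TopHat2 and Cuffdiff on build mm10 per the submitters' processing notes. Their versions, the annotation release and the library scaling: not given in the sources used here. The authors' deposited p-value and q-value come from 1 library against 1 and are quoted as theirs only.

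Ratios, calls and medians were computed in Python 3.11.15 with pandas 2.3.3 and numpy 2.4.6. Rows without an estimate (5, status HIDATA) were left out, and none was a member. Fragments were estimated by fitting 1 step per library to low FPKM of single-isoform genes of 2000 bp or more, with transcript lengths from GENCODE M21. Of the low values, 78.5% under the Aire-KO label and 77.7% under the WT label lay within 0.1 of a whole multiple. The step was fitted to those same values, so depth is approximate. Intervals are exact conditional binomial (scipy 1.17.1), given for transcripts of 500 bp or longer. Fragments carry no molecular identifiers. The estimate and the size rule were tested on simulated data.

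Of 93 members 92 had an open reading frame in GENCODE, aligned with Biopython 1.88, and 27 encode a protein at least 90% identical to another member. Promoters were taken from RefSeq at the start nearest to the 5' end of the deposited locus. Loci were written counted from 1. Cyb5a, Ccl21a and Adgre1 were not found by those symbols. Named were all members of the small classes and of the autoantibody target list and, in the 2 large ones, the 6 most expressed, the 6 with the lowest ratio, the higher ones and those nearest the 2-fold line, by a rule set with the lists. Members and lists were chosen with earlier results of these data known. Alternatives covered the added constant, minimum, fold, scaling, symbol rule, near-identical copies and row status.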

Additional observations from a re-analysis of the deposited data

How the results depend on the processing

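The direction of the P450 median and the excess of lower over higher members held under all 11 alternatives tried, and no gene at the minimum changed sign under the 4 alternatives that change single ratios. With 1 FPKM added in place of 0.1 the median was -1.04, and lower sterol and bile acid genes numbered 0 and lower vitamin D and retinoic acid genes 1. Under that setting 9 of 51 genes left the 2-fold range, among them Cyp2j6, Cyp8b1, Cyp11b2, Cyp26b1 and Cyp27b1. With no minimum, 58 of 89 members were lower, with 5 steroid, 2 sterol and bile acid, 10 fatty acid and 38 xenobiotic genes among them. With a mean of 2 FPKM required, 13 of 24 members were lower and the median was -1.27, with 1 steroid, 0 sterol and bile acid, 0 vitamin D and retinoic acid, 3 fatty acid and 9 xenobiotic genes lower. At 4-fold no member was higher (0) and 0 sterol and bile acid genes were lower. The number of genes or the fold differs between these settings, but the share of lower members moved too. It was 72.5% as reported, against 20.5% of all genes. With no minimum it was 65.2% against 25.3%, and with a mean of 2 FPKM 54.2% against 14.3%. With 1 FPKM added it was 54.9% against 15.2%, and at 4-fold 51.0% against 11.9%. Scaling, symbol rule, row status and leaving out near-identical copies kept every count within 1.5 times. Copies were left out by protein identity, so some with similar coding sequences stayed in. Cyp3a11, for example, has a coding sequence 94.9% identical to that of Cyp3a44. With Cyp51, Cyp2ab1 and symbols ending in a letter, an alternative chosen after seeing the data, 38 of 53 were lower. No paired analysis was possible because each genotype has 1 library. Genes with few fragments under the Aire-KO label have ratios that depth does not resolve.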

Other observations

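Isoform rows were deposited for 93 P450 members, of which 83 had 1 isoform and 10 had more. In Cyp3a25 the coding transcript NM_019792 had 0.216 FPKM in the library labelled Aire-KO and 2.52 FPKM in the library labelled WT, while the non-coding NR_030782 had 0.323 and 6.29e-05 FPKM in the same order. In Cyp2r1 the non-coding NR_110408 had 0.268 FPKM in the library labelled Aire-KO and was listed at 0 in the library labelled WT, whereas the coding NM_177382 had 0.317 and 0.394 FPKM in the same order. In Cyp4f14, NM_001204335 carried 0.0108% of the gene's level under the Aire-KO label and 51.7% under the WT label, but only an estimated 3 fragments were behind the gene under the Aire-KO label. These shares carry an unmeasured error from splitting reads between isoforms, and Cyp3a25 also has a close copy, Cyp3a59, with coding sequences 97.5% identical.

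P450-fold enzymes of the prostanoid pathway, whose symbols lie outside the member rule, were also measured. Ptgis, prostacyclin synthase, was lower at 0.793 FPKM in the library labelled Aire-KO and 1.79 FPKM in the library labelled WT. Tbxas1, thromboxane synthase, was below the minimum at 0.0510 FPKM in the library labelled Aire-KO and 0.895 FPKM in the library labelled WT.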
